A study of Mus musculus with 4 samples.

Results

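The macrophage state genes described here were 8 genes (Nos2, Mrc1, Chil3, Retnla, Marco, Adgre1, Csf1r and Trem2) of the 19465 genes measured, taken by their symbol. They were followed in the primary tumor (PT) and the lung of 2 BALB/c mice, labelled Mouse_627 and Mouse_628. Each mouse had received 100000 4T1 cells, a triple-negative mammary carcinoma line syngeneic to BALB/c, in the mammary fat pad at 8 weeks of age, and organs were taken 28 days later. All 4 sections therefore came from tumor-bearing animals of the same strain and with the same treatment, each organ was seen in 1 section of 4 µm, and no lung of a tumor-free mouse was analysed. Transcripts were read with probe pairs on fixed, paraffin-embedded tissue in spots of the 10x Visium array, and 1 spot usually spans more than 1 cell, so a unique molecular identifier (UMI, the tag by which 1 probed transcript is counted) cannot be given to a macrophage or to its neighbor.

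Macrophages take up different programs depending on the signals that reach them. Interferon and bacterial products drive a classical state in which inducible nitric oxide synthase makes nitric oxide from arginine, whereas interleukin 4 and interleukin 13, acting through STAT6, drive an alternative state with its own surface receptors and secreted proteins. In tumors, macrophages often carry genes of the alternative program, and in the lung the resident alveolar macrophages form a population of their own.

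Of the 8 members, Nos2 (inducible nitric oxide synthase, mm10 chr11:78920787-78960254, plus strand) is the enzyme that defines the classical state. Mrc1 (chr2:14229392-14332057, plus strand) encodes the mannose receptor CD206, Retnla (chr16:48842551-48844461, plus strand) the secreted protein RELMα, and Chil3 (chr3:106147554-106167564, minus strand) the secreted chitinase-like protein Ym1, and all 3 are used as markers of alternative activation in mice. Marco (chr1:120474538-120505024, minus strand) is a scavenger receptor, Adgre1 (chr17:57358691-57483527, plus strand) encodes the F4/80 antigen, Csf1r the receptor for the macrophage growth factor CSF1, and Trem2 (chr17:48346401-48354147, plus strand) a lipid-sensing receptor of tumor-associated and lipid-laden macrophages.

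The promoters of the alternative-activation members are shown because STAT6 and C/EBP factors are the textbook regulators of this program. RefSeq windows on GRCm38.p6, from 250 bases before to 50 bases after the start that RefSeq gives, which can lie some bases from the GENCODE gene starts given above, were matched for 5 of the 7 members searched (Mrc1, Retnla, Chil3, Trem2 and Marco). In the sequences below, capitals mark a match to a STAT6 motif (TTC and GAA with any 4 bases between them, the same on both strands) or a C/EBP motif (TTNNGCAA, or TTGCNNAA on the other strand). The windows are chr16:48842359-48842658 (plus strand) for Retnla, chr2:14229164-14229463 (plus strand) for Mrc1 and chr3:106167515-106167814 (minus strand) for Chil3.
Retnla: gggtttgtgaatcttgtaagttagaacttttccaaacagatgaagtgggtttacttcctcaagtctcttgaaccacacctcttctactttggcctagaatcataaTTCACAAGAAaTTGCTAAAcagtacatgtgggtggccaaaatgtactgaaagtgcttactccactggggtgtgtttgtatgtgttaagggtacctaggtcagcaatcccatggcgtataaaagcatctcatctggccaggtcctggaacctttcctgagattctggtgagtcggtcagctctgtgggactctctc
Mrc1: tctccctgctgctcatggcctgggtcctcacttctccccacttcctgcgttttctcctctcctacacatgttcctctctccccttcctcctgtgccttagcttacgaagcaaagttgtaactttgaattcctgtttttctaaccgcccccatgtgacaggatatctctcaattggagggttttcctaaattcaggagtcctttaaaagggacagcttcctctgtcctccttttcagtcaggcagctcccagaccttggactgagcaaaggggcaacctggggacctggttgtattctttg
Chil3: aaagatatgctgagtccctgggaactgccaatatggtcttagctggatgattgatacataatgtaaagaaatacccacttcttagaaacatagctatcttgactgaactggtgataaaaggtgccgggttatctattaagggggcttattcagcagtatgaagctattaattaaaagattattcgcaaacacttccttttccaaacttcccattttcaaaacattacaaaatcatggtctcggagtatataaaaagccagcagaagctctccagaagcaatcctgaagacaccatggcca
The Retnla window held 1 STAT6 match, starting 145 bases before the RefSeq start, and 1 C/EBP match starting 134 bases before it, next to each other with no overlap. The Mrc1, Chil3 and Marco windows held neither motif, and that of Trem2 held 1 C/EBP match. Over 32851 promoter windows of the same length, 6.95% held the STAT6 motif and 10.8% the C/EBP motif. The hypoxia response element (ACGTG) and the AP-1 motif (TGANTCA), read on both strands, were in none of the 3 windows shown, the Trem2 window held 1 AP-1 match, and 19.6% and 7.81% of all windows held them. A match describes letters only, and binding was not measured.

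In all, 9339 of the 9445 spots under tissue had more than 200 genes and were kept. The kept spots summed to between 10890154 UMIs in the PT of Mouse_628 and 30240176 in the lung of Mouse_628, and the median per spot ran from 1820 to 9174.5. Levels are given as CPM, the UMIs of a gene scaled to 1000000 UMIs in the section or class of spots, and ranges in square brackets are exact 95% intervals that cover counting error only. Genes for olfactory and vomeronasal receptors, which these tissues should not use, gave the background level of each section. Their median was 0.591 CPM in the PT of Mouse_627, 0.180 in its lung and 0.132 in the lung of Mouse_628, but 6.61 in the PT of Mouse_628, where they took 0.926% of all UMIs and 95% of them lay below 19.0 CPM. The PT section of Mouse_628 thus stood apart, and in it Chil3, Retnla, Marco, Adgre1 and Trem2 (3.67 to 7.25 CPM) lay within the range of the receptor genes, with 502 to 1012 of the 1178 receptor genes at or above each of them.

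A summed list of 15 general macrophage genes (among them Cd68, C1qa, Mertk and Ctss) reached 3700 and 1034 CPM in the PTs and 2073 and 2284 CPM in the lungs of Mouse_627 and Mouse_628, with none of its genes at 0. Adgre1, which defines mature macrophages in many mouse tissues, was low throughout, at 6.13, 3.67, 5.39 and 3.84 CPM in the PT of Mouse_627, the PT of Mouse_628, the lung of Mouse_627 and the lung of Mouse_628. Marco, which alveolar macrophages carry, stood at 0.443, 7.25, 0.629 and 3.17 CPM in the same order. Only in the lung of Mouse_628 was it above the 95th percentile of the receptor genes by more than its counting interval [2.57 to 3.88]. Neither gene had enough UMIs to be mapped, and both are given here by level only, but for Marco by alveolar share.

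The first comparison asked how the members differed between lung and PT. Retnla was the only member called in edgeR's main test. Chil3 and Csf1r were higher and Nos2 lower in the lung of each mouse, while Mrc1 and Trem2 parted the 2 mice. In such sums of spots, fewer cells of a type and less RNA per cell cannot be told apart.

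Retnla measured 0.443 CPM [0.163 to 0.965] and 5.97 CPM [4.61 to 7.61] in the PTs of Mouse_627 and Mouse_628, against 1566 CPM [1543 to 1589] and 1804 CPM [1789 to 1820] in their lungs. The groups did not overlap, and both PT values were at the background of their section. edgeR's quasi-likelihood test on the 4 section sums gave a log2 fold change of 9.39 (SE 1.13, n = 2 mice) with a Benjamini-Hochberg adjusted p of 0.00419. Retnla was called in each of the 7 fits of this comparison, a fit with the mouse numbers crossed on purpose included (adjusted p from 1.00e-41 to 0.00945). It was the only member of the 8 that was called in the main test, in which 7.46% of 15267 genes were called, 963 higher in lung and 176 lower. Since the PT values lay at the background, the size of this fold rests on that background as well.

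Nos2 measured 198 and 120 CPM in the PTs of Mouse_627 and Mouse_628, against 69.2 and 63.7 CPM in the lungs. Each lung lay below its own PT and below the other PT, and the groups did not overlap. The log2 fold change was -0.96 (SE 0.40), with an adjusted p of 0.190 in edgeR's test, so Nos2 was not called. Its adjusted p ranged from 0.0976 to 0.253 over all fits, and the direction was lower in lung in each of them.

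Mrc1 measured 104 and 52.6 CPM in the PTs and 50.0 and 180 CPM in the lungs of Mouse_627 and Mouse_628. The lung of Mouse_627 was therefore the lowest section and the lung of Mouse_628 the highest, and the groups overlapped. The lungs averaged 115 ± 92.0 CPM and the PTs 78.2 ± 36.2 CPM (SD, n = 2). Its log2 fold change of 0.76 (SE 0.55) was not called (adjusted p = 0.456, edgeR). The tumor marker list (Csf3, Mmp3, Plau, Hmga2, Twist1 and Tfap2c) moved with this difference between the lungs, at 92.7 CPM in Mouse_627 and 1070 CPM in Mouse_628, and its part in it was not tested. Trem2 measured 27.1 and 6.15 CPM in the PTs against 8.72 and 15.9 CPM in the lungs, so that it too parted the 2 mice, with the PT of Mouse_628 at the background level.

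Chil3 measured 0.887 and 6.06 CPM in the PTs, both at background, and 13.7 and 19.0 CPM in the lungs. The log2 fold change was 2.56 (SE 0.85) with an adjusted p of 0.113, and 3.04 (SE 1.00) with an adjusted p of 0.0236 when the mouse was a block. Csf1r measured 77.9 and 24.3 CPM in the PTs against 107 and 73.1 CPM in the lungs, higher in the lung of each mouse. It had a log2 fold change of 1.12 (SE 0.56, adjusted p = 0.267), and of 1.32 (SE 0.42, adjusted p = 0.0173) with the block. With the block, in which edgeR called 11.9% of genes, Retnla, Chil3 and Csf1r were called and the other 5 members were not. DESeq2 called 17.3% of genes, 1436 higher and 1208 lower, and edgeR without a filter on low counts 10.5%. Chil3 was also called by DESeq2 (adjusted p = 0.0196) and without a filter (adjusted p = 0.00676), and Csf1r by neither. With spots thinned to 1000 UMIs the log2 fold change of Chil3 was 1.11 (SE 0.93, adjusted p = 0.567), with 18.0 against 13.8 CPM in lung and PT of Mouse_628. Both were also called when the mouse numbers were crossed on purpose (adjusted p = 0.000131 and 0.0334), so these calls do not rest on the true pairing of the sections. Leaving that fit out, the adjusted p ranged from 0.00676 to 0.567 for Chil3 and from 0.0173 to 0.398 for Csf1r.

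**Figure D1:**
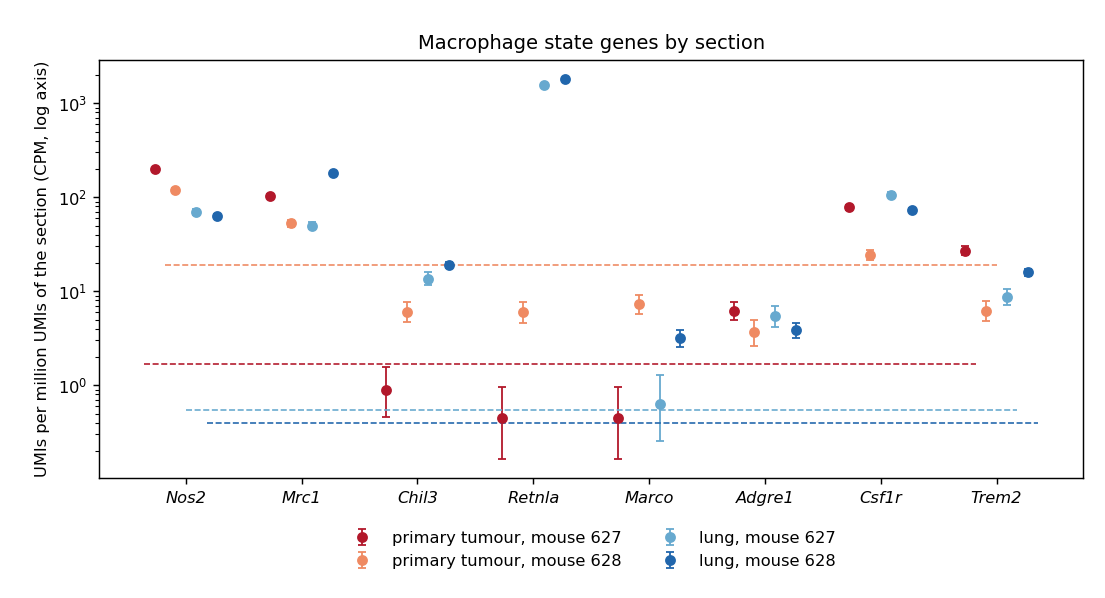
CPM of the 8 members in each of the 4 sections, on a log axis. Points are section sums, bars are exact 95% Poisson intervals (counting error only), and dashed lines mark the 95th percentile of the receptor genes of the section in the same color. Retnla stands at 1566 and 1804 CPM in the lungs and at or below the dashed line of its section in the PTs, while Mrc1 spans 50.0 to 180 CPM between the 2 lungs.

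Other genes of the same pathways gave the setting of these differences. Of 14 genes for alternative activation (Il4ra, Stat6, Ccl24 and others), none was called in edgeR's main test (2 at an unadjusted p under 0.05, 2 called by DESeq2), 8 were positive and 6 negative, and their median log2 fold change was 0.27 against -0.0046 over all genes tested. Il4ra, the interleukin 4 receptor chain, measured 587 and 358 CPM in the lungs against 209 and 155 CPM in the PTs. It had a log2 fold change of 1.71 (SE 0.48, adjusted p = 0.0633) in the main test and of 1.65 (SE 0.52, adjusted p = 0.0169) with the block. Of 15 genes tested for classical activation, 11 were negative and 4 positive with a median of -0.78, and 1 was called, Ptgs2 (cyclooxygenase 2, log2 fold change -3.12, SE 0.58, adjusted p = 0.0145). Of 13 tested genes that transport or convert arginine or serve nitric oxide synthesis, 6 were positive and 7 negative with a median of -0.16, and 1 was called, Oat (ornithine aminotransferase, log2 fold change 1.65, SE 0.36, adjusted p = 0.0265). A single call in either list is near the share of all genes called (7.46%).

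Among 12 growth factor and receptor partners of the members, 5 were called higher in lung and none lower, beside 7.46% of all genes, and 8 were positive and 4 negative. Those called were Csf2ra and Csf2rb (the GM-CSF receptor chains), Tyrobp (the signaling adaptor of Trem2), Syk and Spi1 (the transcription factor PU.1), and their log2 fold changes ran from 1.96 for Csf2ra to 2.84 for Spi1. Neutrophils use these genes as well, and 9 of 11 tested neutrophil genes were called higher in lung. The summed neutrophil list was 2682 and 11592 CPM in the PTs against 83696 and 33953 CPM in the lungs. The part of neutrophils in the partner genes was not tested. None of the 15 general macrophage genes was called in edgeR's main test (1 at an unadjusted p under 0.05), 2 were called with the block (Itgam and Mpeg1) and 1 by DESeq2 (Itgam, which neutrophils share).

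Of 17 tested genes from the families of the members, 8 were called higher in lung and none lower, beside 7.46% of all genes called, 13 were positive and 4 negative, and their median log2 fold change was 1.46. Retnlg, a neutrophil gene of the RELM family, was among those called higher in lung (2088 and 1440 CPM against 83.7 and 434 CPM, log2 fold change 3.13, SE 0.75, adjusted p = 0.0371). Adgre5 (CD97, of the family of Adgre1, log2 fold change 3.74, SE 0.58, adjusted p = 0.00836) and Chil1 (a chitinase-like protein related to Chil3, 4.21, SE 0.74, adjusted p = 0.0120) were called higher as well. What part neutrophils had in these 8 calls was not tested. Chil4, a close copy of Chil3, was near the level of the receptor genes and measured 0.665 and 0.270 CPM in the PT and lung of Mouse_627 and 4.32 and 0.198 CPM in those of Mouse_628. Whether probes for these relatives take up each other's transcripts was not tested.

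The next comparison asked where in the lung the members lay relative to tumor. Spots of each lung were ranked by the share of their UMIs that the 6 tumor marker genes took, and the UMIs of spots above the 75th percentile (tumor-rich) and at or below the 25th (tumor-poor) were summed. In the lung of Mouse_628 these were 695 spots each, with marker shares of 0.195% and 0.00981% of UMIs. In the lung of Mouse_627 the 424 tumor-rich spots held only 0.0334%, and the 1179 spots at or below the percentile held no tumor marker UMI at all. The contrast in Mouse_627 is therefore one of few tumor marker UMIs against none, and tumor-rich PT spots held 0.584% and 0.671%.

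In the lung of Mouse_628, Mrc1 was higher in each successive quartile of spots by tumor share while Nos2 and Chil3 were lower in each. Mrc1 measured 84.0, 122, 166 and 258 CPM from the poorest to the richest quartile, and the richest, with 38.8% of all UMIs, held 55.6% of all Mrc1 UMIs and 25.2% of all Nos2 UMIs. Nos2 measured 95.3, 82.2, 63.6 and 41.3 CPM, and Chil3 32.4, 30.5, 19.2 and 7.50 CPM.

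In the lung of Mouse_627, Mrc1 measured 70.3 CPM in tumor-rich and 41.4 CPM in tumor-poor spots, from 197 and 305 UMIs. It was thus higher in tumor-rich spots of both lungs, by 1.70 times [1.41 to 2.04] in Mouse_627 and 3.07 times [2.77 to 3.42] in Mouse_628. Nos2 was lower by a ratio of 0.907 [0.763 to 1.07] and 0.434 [0.381 to 0.494], so that its difference was beyond counting error in Mouse_628 alone. With spots thinned to 1000 UMIs and ranked anew, Mrc1 measured 86.6 against 51.3 CPM in Mouse_627 (11 and 80 UMIs). In Mouse_628 it measured 230 against 126 CPM (134 and 191 UMIs). That ratio was smaller than 3.07, but depth and class membership changed together, with 582 tumor-rich and 1520 tumor-poor spots after thinning. Thinned, Nos2 measured 94.5 against 57.7 CPM in Mouse_627 (12 and 90 UMIs), the other way round, and 56.7 against 80.9 CPM in Mouse_628 (33 and 123 UMIs). Chil3 measured 15.0 against 13.3 CPM in Mouse_627, a ratio of 1.13 [0.765 to 1.63], and thus did not share the lower level of tumor-rich spots in Mouse_628 (ratio 0.231 [0.176 to 0.303]). Thinned, Chil3 measured 23.6 against 12.8 CPM in Mouse_627 (3 and 20 UMIs) and 10.3 against 23.0 CPM in Mouse_628 (6 and 35 UMIs).

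Across the 2 mice, edgeR called 0 of 12924 genes in the main test (0% called, 221 at an unadjusted p under 0.05), and DESeq2 called none (682 at an unadjusted p under 0.05). Mrc1 had a log2 fold change of 1.26 (SE 0.72, adjusted p = 0.718). With the mouse as a block, 36 genes (0.279%) were called and none of the 8 members was, although all 8 passed the filter on low counts. Mrc1 then stood at 1.08 (SE 0.38, adjusted p = 0.177, and 0.0722 to 0.991 over all fits). The values for Nos2 were -0.76 (SE 0.38, adjusted p = 0.718) and -0.80 (SE 0.38, adjusted p = 0.280, and 0.103 to 0.991 over all fits). Over the 12 fits of this comparison Mrc1 was positive in each, from 0.44 to 1.36, and Nos2 negative in each, from -0.87 to -0.089. Chil3 had a log2 fold change of -1.15 (SE 0.65, adjusted p = 0.718, and 0.0985 to 0.991 over all fits). With thinned spots it was -0.50 (SE 0.67).

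Mmp3 and Plau of the marker list are also made by stromal cells, so the spots were ranked once more by Csf3, Hmga2, Twist1 and Tfap2c, a choice made after seeing the data. Mrc1 then measured 71.4 against 46.8 CPM in Mouse_627 and 249 against 100.3 CPM in Mouse_628. The classes were no longer equal quartiles. They set 184 spots against 1513 with no marker UMI in Mouse_627, and 695 against 992 with none in Mouse_628. With the block, this ranking gave 5.41% of genes called, and none of the 8 members was among them. Mrc1 had a log2 fold change of 0.88 (SE 0.27, adjusted p = 0.0722) in that fit and Nos2 of -0.77 (SE 0.28, adjusted p = 0.103). In the same fit, 5 of 15 general macrophage genes were called higher (C1qa, C1qb, C1qc, Msr1 and Aif1, log2 fold changes of 1.38, 1.46, 1.5, 1.13 and 1.36) and none lower. Of the list, 8 were positive and 7 negative, with a median of 0.22. Without the block, this ranking called 0 of 13302 genes. The block with the 6-gene list called no gene of this list or of the lists named next. Of 13 genes for alternative activation 1 was called, Ccl24 (a chemokine, 1.98), while 5 were positive and 8 negative with a median of -0.22. The other lists gave 2 called of 14 for classical activation (Ptgs2, 1.89, and Cxcl10, an interferon-induced chemokine, 1.79), 1 of 9 for lipid-associated macrophages (Spp1, osteopontin, 2.31) and 1 of 13 for arginine and nitric oxide (Slc7a1, the arginine transporter CAT1, 1.32).

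Several other lists moved with tumor share in the lung of Mouse_628. From tumor-poor to tumor-rich spots, the neutrophil list went from 72647 to 7304 CPM, the endothelial list from 1341 to 363 CPM, the hypoxia list from 632 to 1454 CPM and the proliferation list from 467 to 1884 CPM. The fibroblast list was higher in tumor-rich spots of both lungs, at 1251 against 748 CPM in Mouse_627 and 2132 against 1260 CPM in Mouse_628, the direction of Mrc1. The general macrophage list was nearly level, at 2137 and 2276 CPM, and the median depth per spot was 6802 against 15946 UMIs. In Mouse_627 the neutrophil list measured 89339 and 69481 CPM and the general macrophage list 1991 and 2294 CPM. From tumor-poor to tumor-rich spots, the alveolar macrophage list went from 311 to 84.1 CPM in Mouse_628 and from 291 to 287 CPM in Mouse_627. The part of these in the differences of Mrc1, Nos2 and Chil3 was not tested.

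Retnla went opposite ways in the 2 lungs with this list. It measured 2301 CPM in tumor-rich and 1065 CPM in tumor-poor spots of Mouse_627, but 452 against 2676 CPM in Mouse_628. In Mouse_628 the airway list measured 210 CPM in tumor-rich and 2603 CPM in tumor-poor spots and the alveolar list 2963 against 12313 CPM, whereas in Mouse_627 they measured 2041 against 2419 CPM and 12625 against 13613 CPM. Their part in the level of Retnla was not tested. Ranked instead by the measured epithelial genes Krt8, Krt19 and Epcam, Retnla was higher in the upper quartile of both lungs, at 3762 against 487 CPM and 3411 against 1250.0 CPM, and Mrc1 in Mouse_628 stood at 191 against 135 CPM. Of these 3 genes, which lung epithelium is known to use, 2 were called higher in lung than in PT (Krt19 and Epcam), so that this ranking is no measure of tumor alone. Csf1r was level in both, at 102 against 108 CPM and 69.9 against 68.8 CPM, with ratios of 0.939 [0.817 to 1.08] and 1.02 [0.892 to 1.16]. Trem2 measured 9.99 against 8.56 CPM and 17.6 against 12.2 CPM, with ratios of 1.17 [0.720 to 1.85] and 1.45 [1.08 to 1.97].

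**Figure D2:**
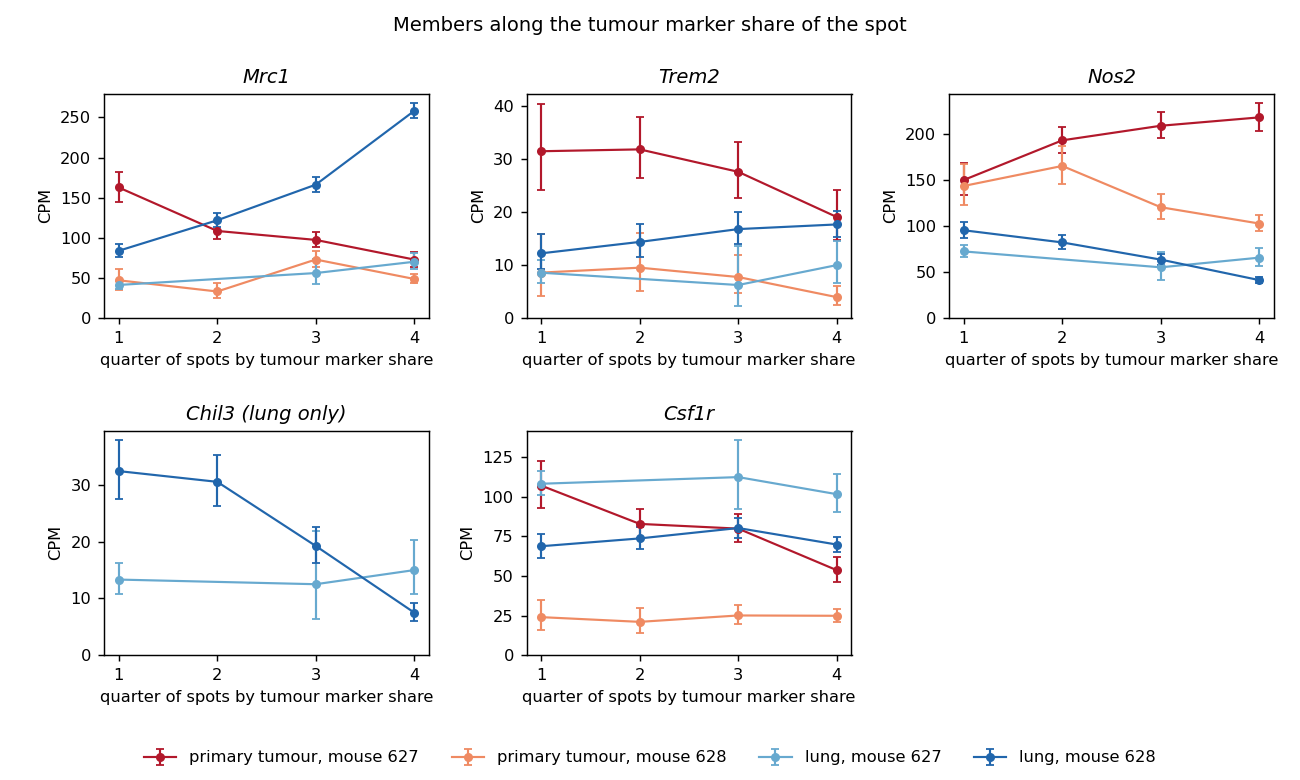
CPM of 5 members in quartiles of spots ranked by tumor marker share (1 is the poorest, 4 the richest), on linear axes, for each section, with exact 95% Poisson bars for counting error. The lung of Mouse_627 has no point in quartile 2, since 1179 of its spots had no tumor marker UMI and all fall in quartile 1. Mrc1 in the lung of Mouse_628 lies at 84.0 CPM in quartile 1 and 258 CPM in quartile 4, while Nos2 there lies at 95.3 and 41.3 CPM.

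The same ranking was made within the PTs. Nos2 measured 218 CPM in tumor-rich and 150 CPM in tumor-poor spots of Mouse_627 and 103 against 143 CPM in Mouse_628, with ratios of 1.45 [1.27 to 1.67] and 0.716 [0.602 to 0.856]. With the 4-gene ranking it was lower in tumor-rich spots of both mice (196 against 222 CPM, from 507 and 137 UMIs, and 106 against 160.0 CPM). Thinned to 1000 UMIs a spot, it was 231 against 191 CPM in Mouse_627 and 116 against 119 CPM in Mouse_628, so that no direction held over these settings. Mrc1 measured 163 CPM in tumor-poor and 73.0 CPM in tumor-rich spots of Mouse_627 and 47.2 and 48.9 CPM in Mouse_628. Csf1r measured 107 and 53.7 CPM in Mouse_627 and 24.0 and 24.9 CPM in Mouse_628. In Mouse_627 the median depth was below 1000 UMIs in tumor-poor and 3542 UMIs in tumor-rich spots. With spots thinned to 1000 UMIs, Mrc1 there was at 79.4 CPM in tumor-poor spots (37 UMIs) and higher, not lower, in tumor-rich spots (34 UMIs), and Csf1r stood at 85.8 against 74.9 CPM. The general macrophage list also went from 4366 to 2711 CPM and the T cell list from 148 to 80.1 CPM in Mouse_627, and their part in these differences was not tested.

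In edgeR's test of the PT spots 0 of 12838 genes were called (0% called, 192 at an unadjusted p under 0.05, and none with DESeq2, 241 at an unadjusted p under 0.05), and 5 of the 8 members passed the filter on low counts. The block called 136 genes (1.06%), the absence of a filter on low counts 0.135% of genes, and the block with the 4-gene ranking 8.63%, in each case without a member. Nos2 had a log2 fold change of 0.23 (SE 0.39, adjusted p = 0.862) and Mrc1 of -0.73 (SE 0.57, adjusted p = 0.848). Receptor genes took 2.60% of UMIs in tumor-poor against 0.393% in tumor-rich spots of the PT of Mouse_628, with a median of 18.9 CPM and a 95th percentile of 54.3 CPM in the tumor-poor spots. The values of Chil3, Retnla, Marco, Adgre1 and Trem2 there (7.73 to 19.7 CPM), and those of Csf1r (24.0 CPM) and Mrc1 (47.2 CPM), lay within this background, so that no difference can be read for these members in Mouse_628.

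Whether the tumor-rich to tumor-poor difference itself differed between lung and PT was tested as an interaction over the 8 sums. Mrc1 had a log2 difference of 1.61 (SE 0.98, unadjusted p = 0.130) and Nos2 of -1.41 (SE 0.63, unadjusted p = 0.0482) in edgeR's fit across all genes. Over the 10 fits Mrc1 ran from 0.051 to 1.95 and Nos2 from -1.59 to -0.22, with 0.58 and -0.40 in thinned spots. None of the 16417 genes was called (0% called, 169 at an unadjusted p under 0.05, and none with the block or DESeq2, 315 and 202 at an unadjusted p under 0.05), and the adjusted p of each of these members rounded to 1.00. A different course in lung and PT was therefore not shown for any of them. No fit paired the tumor-rich and tumor-poor sums within each section, and the block gave a mouse the same effect in both organs.

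Tumor-rich spots of the lung were also set against tumor-rich spots of the PT. Nos2 was lower in the lung of both, at 65.7 against 218 CPM and 41.3 against 103 CPM, with ratios of 0.302 [0.255 to 0.355] and 0.403 [0.356 to 0.455]. Mrc1 measured 70.3 against 73.0 CPM and 258 against 48.9 CPM. Retnla had 2 and 17 UMIs in tumor-rich spots of the PTs (0.568 and 3.07 CPM) and Chil3 had 3 and 16 UMIs (0.853 and 2.89 CPM), at the level of the receptor genes there (median 0.568 and 2.71 CPM), so that the size of their differences rests on that background.

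With 7 of the 8 members past the filter, edgeR called 0 of 12659 genes (0% called, 1581 at an unadjusted p under 0.05), and none with the block (1219 at an unadjusted p under 0.05), while DESeq2 called 6.06% and the block with the 4-gene ranking 0.983%. The log2 fold change was -1.54 (SE 0.52, adjusted p = 0.385) for Nos2, 1.38 (SE 0.61, adjusted p = 0.432) for Mrc1, 2.56 (SE 0.90, adjusted p = 0.388) for Chil3 and 9.54 (SE 1.46, adjusted p = 0.375) for Retnla. Without a filter on low counts, 6.8% of genes were called, among them Nos2 (adjusted p = 0.0351), Mrc1 (adjusted p = 0.0173) and Retnla (adjusted p = 1.48e-28). Over the 11 fits the adjusted p ranged from 0.0351 to 0.392 for Nos2, from 0.0173 to 0.629 for Mrc1 and from 1.48e-28 to 0.386 for Retnla, which was called in 6 of them, DESeq2 included (adjusted p = 9.30e-24). Among these 6 was edgeR's fit with the mouse numbers crossed on purpose (adjusted p = 6.18e-06).

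Retnla was higher in airway-rich than in airway-poor spots of both lungs. Lung spots above the 90th percentile of the airway marker share (Scgb3a2, Cyp2f2, Foxj1 and others) were set against spots at or below the 50th percentile. Retnla measured 3196 against 481 CPM in Mouse_627 and 15803 against 427 CPM in Mouse_628, ratios of 6.64 [6.32 to 6.97] and 37.0 [36.2 to 38.0]. Along the airway share (0 to 50th, 50th to 75th, 75th to 90th and above the 90th percentile) it measured 427, 797, 2903 and 15803 CPM in Mouse_628. In Mouse_627 it measured 481, 1855, 4211 and 3196 CPM, so that its highest bin was the third and not the last. The airway-rich spots held 61.0% of Retnla UMIs with 6.96% of all UMIs in Mouse_628, and 21.2% with 10.4% in Mouse_627.

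edgeR's main test called 0 of 12730 genes in this comparison (0% called, 1158 at an unadjusted p under 0.05), and Retnla had a log2 fold change of 4.28 (SE 1.00, adjusted p = 0.140). With the mouse as a block, 11% of genes were called, and of the 7 members that were tested Retnla alone was, with a log2 fold change of 3.87 (SE 1.02, adjusted p = 0.00208). DESeq2 called 4.97% of genes, Retnla among them (adjusted p = 1.46e-08), and edgeR without a filter on low counts 3.18%, again with Retnla (adjusted p = 0.00213). Over the 8 fits Retnla was positive in each, from 3.60 to 4.31, and called in 4, with adjusted p from 1.46e-08 to 0.245.

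Lists of other cells moved with the airway share too. From airway-poor to airway-rich spots, the alveolar macrophage list went from 118 to 376 CPM in Mouse_628 and from 278 to 315 CPM in Mouse_627. The B cell list went from 319 to 846 CPM in Mouse_627 and from 54.9 to 143 CPM in Mouse_628, the cardiac list from 259 to 410 and from 357 to 985 CPM, and the general macrophage list from 2157 to 1725 and from 2383 to 1831 CPM. Retnla was thus higher where the summed general macrophage genes were lower. Which cells in these spots carried Retnla was not tested.

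Among the other members, Mrc1 measured 74.4 against 48.0 CPM in airway-rich and airway-poor spots of Mouse_627 and 117 against 218 CPM in Mouse_628. In the same order, the tumor list measured 54.5 against 108 CPM and 420 against 1396 CPM. The fibroblast list measured 1431 against 691 CPM and 2218 against 1962 CPM, and the neutrophil list 58233 against 89411 CPM and 39954 against 21093 CPM. Their part in the level of Mrc1 was not tested. With the block, which called 11% of all genes, 3 of 8 tested genes of the alveolar macrophage list were called higher in airway-rich spots (5 positive and 3 negative). These were Fabp4 (log2 fold change 2.50, SE 0.39), Plet1 (1.94, SE 0.36) and Cidec (2.41, SE 0.67), and which cells carried them was not tested. Of 12 tested genes for alternative activation, 6 were positive and 6 negative, and 1 was called in each direction, Cd209a higher (2.33, SE 0.62) and Ccl24 lower (-1.66, SE 0.44). Of 13 tested genes for arginine and nitric oxide, 5 were positive and 8 negative, and again 1 was called in each direction, Slc7a2 (a cationic amino acid transporter that supplies arginine) higher (1.54, SE 0.42) and Ddah1 (which breaks down inhibitors of nitric oxide synthase) lower (-1.48, SE 0.51).

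**Figure D3:**
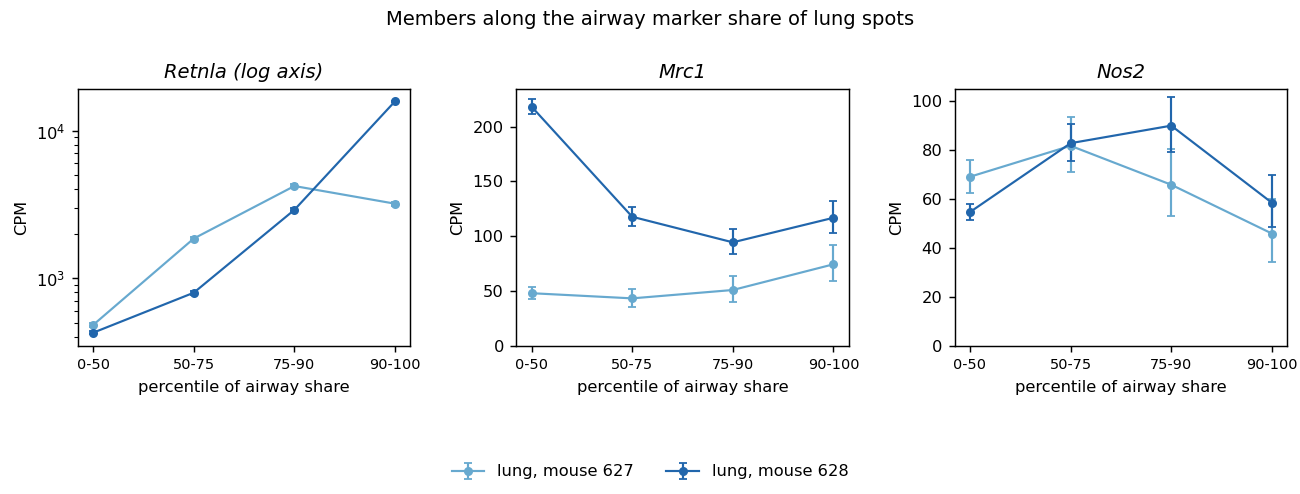
CPM of Retnla, Mrc1 and Nos2 in lung spots binned by airway marker share, for the 2 lungs, with exact 95% Poisson bars (counting error only). The axis for Retnla is logarithmic. Retnla reaches 15803 CPM above the 90th percentile in Mouse_628 and 4211 CPM between the 75th and 90th percentiles in Mouse_627, and Mrc1 lies at 218 CPM in the first and 117 CPM in the last bin in Mouse_628, against 48.0 and 74.4 CPM in Mouse_627.

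Alveolar tissue was read with 8 marker genes of the alveolar epithelium (Sftpc, Ager and others), again as the upper against the lower quartile of lung spots. Mrc1 was lower in alveolar-rich spots of both lungs, at 49.1 against 71.0 CPM in Mouse_627 and 136 against 229 CPM in Mouse_628, with ratios of 0.691 [0.552 to 0.865] and 0.593 [0.549 to 0.641]. The tumor list (58.6 against 142 CPM and 448 against 1774 CPM) and the fibroblast list (882 against 1421 CPM and 1668 against 2550 CPM) were lower in alveolar-rich spots of both lungs too, and their part in the level of Mrc1 was not tested. Chil3 measured 13.4 against 12.6 CPM in Mouse_627 and 34.0 against 5.06 CPM in Mouse_628, and Nos2 65.7 against 62.1 CPM and 87.7 against 38.8 CPM.

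In edgeR's test 0 of 12606 genes were called with or without the block (0% called, 117 at an unadjusted p under 0.05), and DESeq2 called 4 genes (0.0317%), none of them a member. With the block 1162 genes had an unadjusted p under 0.05. The log2 fold change of Mrc1 was -0.53 (SE 0.73, adjusted p = 0.952) and, with the block, -0.53 (SE 0.28, adjusted p = 0.548, the lowest over all 10 fits). Of the 8 members 7 were tested, and Marco was too low. In alveolar-rich and alveolar-poor spots of Mouse_628, Marco measured 7.32 against 1.59 CPM (48 and 16 UMIs), a ratio of 4.61 [2.57 to 8.70]. In Mouse_627 it had 3 and 0 UMIs. Without a filter on low counts, edgeR gave it a log2 fold change of 2.26 (SE 1.29, adjusted p = 0.973). The log2 fold changes of other members were 1.52 (SE 0.79) for Chil3, 0.69 (SE 0.43) for Nos2 and -0.03 (SE 0.67) for Retnla, each with an adjusted p of 0.952 or more. In Mouse_628 the neutrophil list measured 5527 CPM in alveolar-poor and 56599 CPM in alveolar-rich spots, beside the higher Chil3 and Nos2. In Mouse_627, where those members were level, it measured 81800 and 79854 CPM. The alveolar macrophage list measured 111 CPM in alveolar-poor and 240 CPM in alveolar-rich spots of Mouse_628, and 266 and 311 CPM in Mouse_627. The part of these cells in the levels of the members was not tested.

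**Figure D4:**
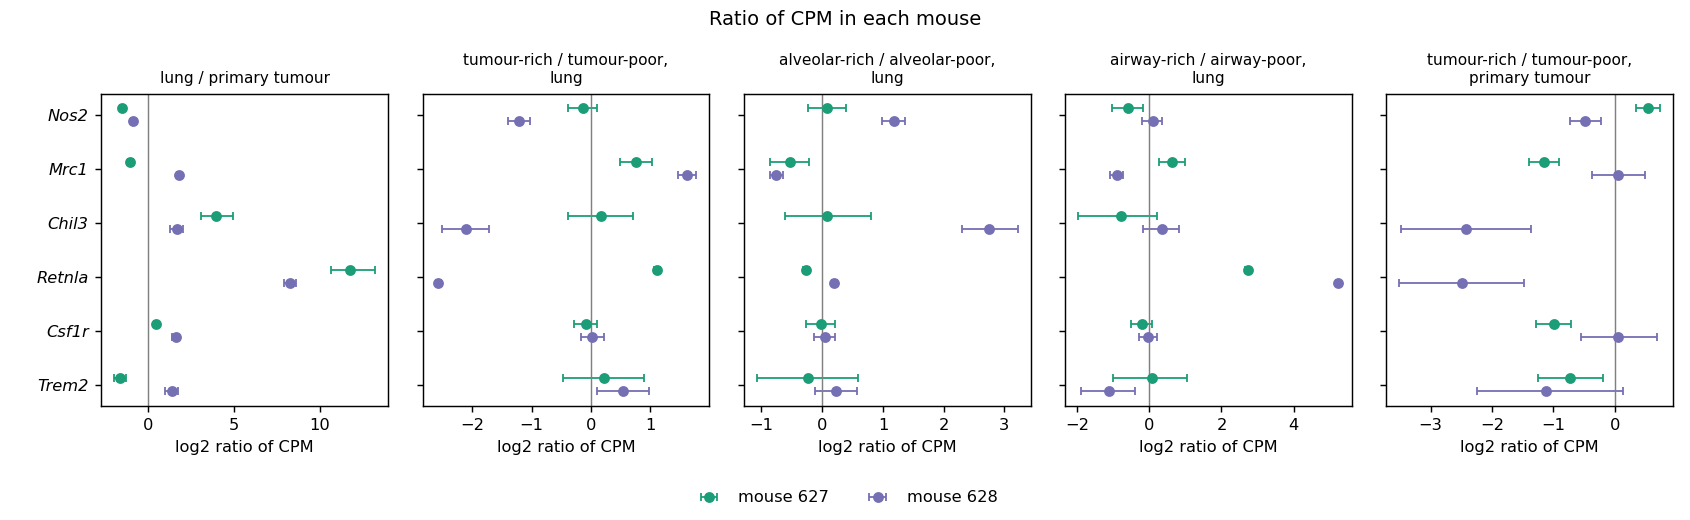
Log2 ratio of CPM for 6 members in each mouse (green for Mouse_627, purple for Mouse_628) in 5 comparisons, with 95% intervals that cover counting error only. Points are left out where either side had 3 UMIs or fewer. The mice agree in sign for Nos2 and Retnla between lung and PT and for Mrc1 by tumor and alveolar share in the lung, and part for Retnla by tumor share.

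The maps showed Retnla in patches. Mrc1 was found in far fewer spots, so that its spread cannot be compared with that of Retnla. Each spot was thinned to 1000 UMIs, which left out 886, 10, 56 and 5 spots of the PT of Mouse_627, the lung of Mouse_627, the PT of Mouse_628 and the lung of Mouse_628. A Retnla UMI was then found in 35.0% of spots in the lung of Mouse_627 [32.7 to 37.3] and 45.5% in the lung of Mouse_628, against 69.8% and 88.4% before thinning, and in 0.125% and 1.04% of PT spots. Mrc1 was found in 8.35% and 4.92% of PT spots, 5.10% of lung spots in Mouse_627 [4.10 to 6.26] and 14.2% in Mouse_628 [12.9 to 15.6]. Around a Retnla spot, 59.5% and 65.6% of neighboring spots in the lungs of Mouse_627 and Mouse_628 held Retnla as well, against 22% and 28.8% around spots without it. Around Mrc1 spots in the lung of Mouse_628 the share was 19.9% against 13.3%, and in that of Mouse_627 it was 7.66% against 4.96%. For Nos2 in the lung of Mouse_628 the share was 7.12% against 7.01%, with a UMI in only 7.10% of its thinned spots.

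**Figure D5:**
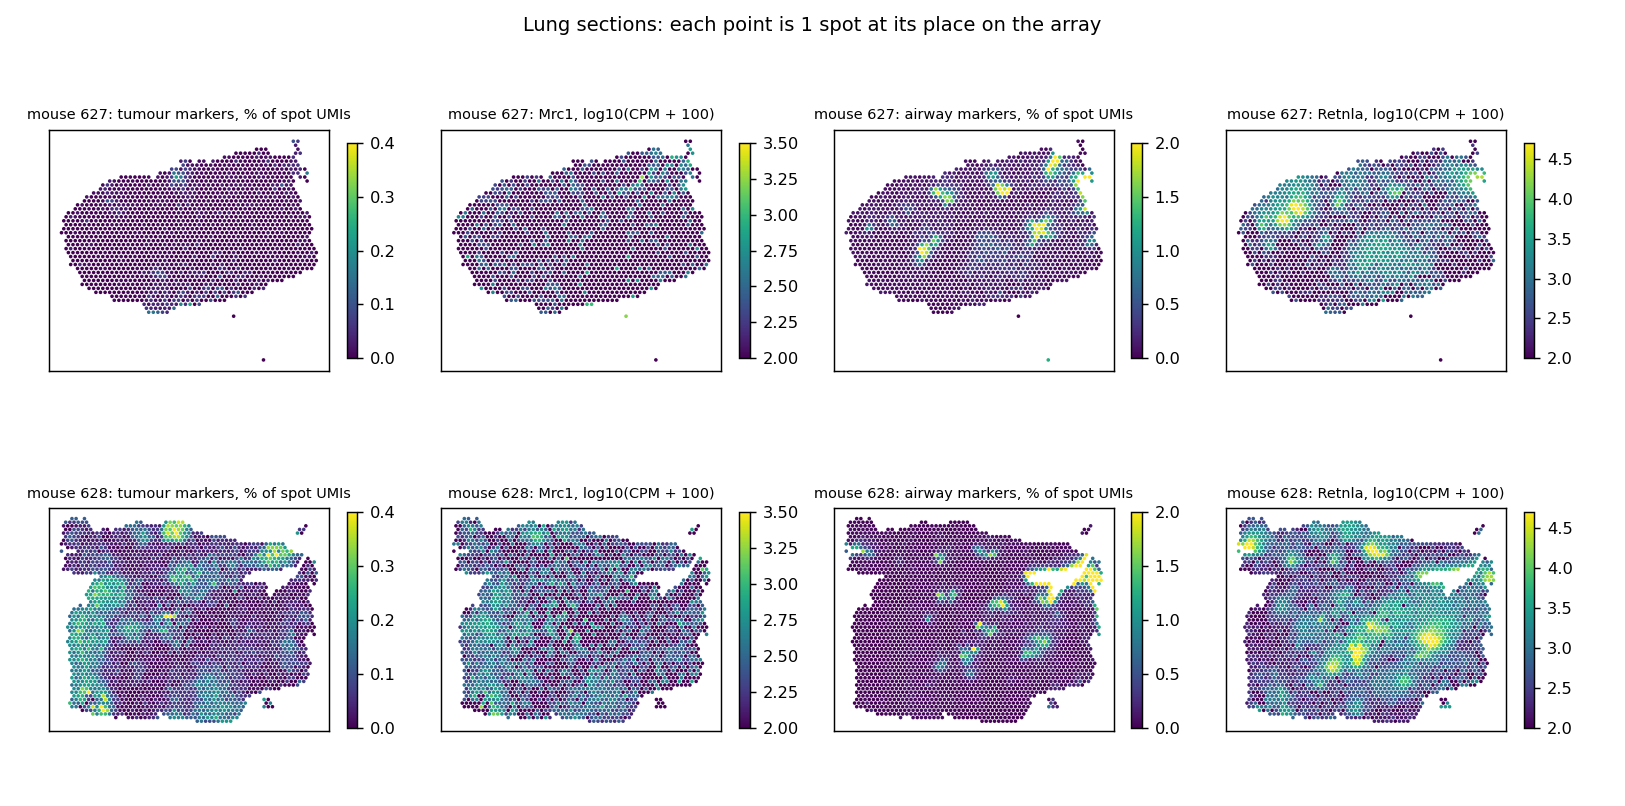
Lung sections of Mouse_627 (top) and Mouse_628 (bottom), each point 1 spot at its place on the array, colored by tumor marker share (percent of spot UMIs), Mrc1, airway marker share and Retnla. The genes are shown as the base 10 logarithm of CPM with 100 added, and colors are capped at the ends of each bar. Mrc1 is found in more spots of the lung of Mouse_628 (14.2% after thinning) than of Mouse_627 (5.10%), and Retnla forms bright patches in both.

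Over the spots of the lung of Mouse_628, the Spearman correlation of Mrc1 was 0.37 with the tumor share, -0.18 with the alveolar share, -0.28 with the airway share and 0.16 with the general macrophage list. Spots share 1 library, and the tumor share rose with depth itself (0.53), so these are descriptions. After thinning, the value of Mrc1 with the tumor share was 0.090. In the lung of Mouse_627 it was 0.11 before and 0.036 after thinning. Retnla had values of 0.40 and 0.52 with the airway share in the 2 lungs (0.30 and 0.37 after thinning), and -0.03 and -0.06 with the general macrophage list. The values of Nos2 with the tumor share were -0.0036 and -0.11.

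The genes most like each member were read from tiles of 6 rows by 12 columns of the array (53 tiles in the lung of Mouse_627 and 92 in that of Mouse_628), as the Pearson correlation of log2 CPM, with 10 CPM added, over tiles in each lung among 9179 genes. Tiles of a lung share 1 library, and no p is given. Retnla was most like Pigr (the epithelial receptor that carries immunoglobulin A, 0.69 and 0.79), Cxcl17 (a mucosal chemokine, 0.64 and 0.75), Pcx, Serpina3n and Eppk1. Mrc1 was most like Axl (a receptor for dying cells, 0.65 and 0.64), Hspg2, Igfbp4, Lgmn and Bmp1, and Nos2 like Cnr2 (the peripheral cannabinoid receptor, 0.56 and 0.52), Ccpg1, Clec4e (0.50 and 0.55) and Grk2.

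Chil3 was most like Sgk1 (0.62 and 0.58), Cebpd, Irf2, Tbc1d8 and Cxcr4. For Csf1r (Prkch, Usp8, Kif13b and Pld4) and Trem2 (Lig3, Plcb3, Ciao2b, Arl5a and Gpc4) the values were lower, the smaller of the 2 lungs being 0.46 at most for Csf1r and 0.37 at most for Trem2. Among the members, Nos2 and Chil3 were correlated over tiles at 0.29 and 0.50, Mrc1 and Trem2 at 0.17 and 0.30, and Nos2 and Mrc1 at -0.35 and -0.23. Within thinned spots of the lung of Mouse_628, Nos2 was found in 8.63% of spots with Mrc1 and 6.85% of spots without, and in those of Mouse_627 in 4.65% and 5.68%.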

How the data were processed

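The values deposited for each section were unnormalized UMI counts by spot, made by the authors with Space Ranger 2.0.0 on mm10 (file headers and processing notes), with array positions. Spots with more than 200 genes were kept. UMIs were summed over spots per section or class, giving 1 sum per mouse and group, and spots were never used as replicates. Sums were tested with edgeR 4.0.16 (TMM, filterByExpr, quasi-likelihood, Benjamini-Hochberg at 0.05) in R 4.3.3. Marker genes that defined a class were part of its fit and were left out before the adjustment of p and the calls. DESeq2 1.42.0, the mouse as a block, other filters, depths, splits and marker lists were alternatives, and the code was tested on simulated data. The mouse number pairs the sums, since both come from the same animal. The correlation of their deviations was 0.59 to 0.78 within an organ, and -0.31 (lung against PT) and -0.29 (tumor-rich spots of both) between organs. Intervals are exact at 95% (Poisson or Clopper-Pearson). The members, in every comparison, and for each member with at least 10 CPM in the lungs the 5 genes most like it, were named by rule, as were list genes that were called. A further member and some of the like genes are not reported here. Members, lists and tests were chosen with earlier results of these data known.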

Additional observations from a re-analysis of the deposited data

Results flagged for a closer look

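Trem2 stood out only because its nominal tumor-rich over tumor-poor ratio was above 1 in both lungs and below 1 in both PTs. The difference between the organs was 0.71 on the log2 scale (SE 1.12), with an unadjusted p of 0.538 in edgeR's fit across all genes, so it was not beyond the spread between mice. Trem2 measured 9.99 against 8.56 CPM and 17.6 against 12.2 CPM in the lungs, and 19.0 against 31.4 CPM and 3.97 against 8.58 CPM in the PTs of Mouse_627 and Mouse_628. In the PT of Mouse_628 the receptor genes fell from a median of 18.9 CPM in tumor-poor to 2.71 CPM in tumor-rich spots, and Trem2 lay within their range in those tumor-poor spots, so that no PT direction can be read in that mouse. The ratio in the lung of Mouse_627, 1.17 [0.720 to 1.85], was within counting error.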

How the results depend on the processing

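Of 397 comparisons with another setting, 314 kept the direction and the side of the threshold, or the size, 44 moved, 19 newly passed the threshold, none lost it and 20 turned the direction of a value that was not called. With 1 mouse left out, a value not called counted as kept if it moved by less than the SD of the 2 mice. Turns of direction there are not among the 20, as for Mrc1 between lung and PT (log2 ratio -1.05 in Mouse_627 alone against 0.76). The cause of the changes was not tested. Marco and Adgre1 had too few UMIs to be mapped, and every test rests on 2 mice.

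Between lung and PT, the number of genes called was 1139, and 1817 with the replicate block, 2644 with DESeq2, 2022 with no filter on low counts, 739 with spots thinned to 1000 UMIs and 2565 with the mouse numbers crossed. There Trem2 turned to 0.16 (log2) with the replicate block, 0.19 thinned and 0.13 crossed. By tumor share in lung, 0 genes became 36 with the block, 720 with the block and a list without Mmp3 and Plau, and 45 with the block and no airway-rich spots. Retnla turned to 1.96 with another list (epithelial genes that lung epithelium shares) and 0.28 without airway-rich spots. By alveolar share, 0 became 4 with DESeq2, and Retnla turned to 0.073 with the block, 0.044 with other percentiles, 0.51 with another list, 0.37 without airway-rich spots and 0.96 with that and the block. By airway share, 0 became 1394 with the block, 633 with DESeq2, 598 with no filter and 194 thinned.

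By tumor share in the PT, 0 became 136 with the block, 26 with no filter and 1037 with the block and the list without Mmp3 and Plau. Nos2 turned to -0.16 with other percentiles, -0.15 with another list, -0.23 without Mmp3 and Plau and -0.27 with that and the block. Mrc1 turned to 0.077 thinned and 0.36 with another list, Csf1r to 0.010 and 0.54, and Trem2 to 0.43 with another list. Between tumor-rich spots of lung and PT, 0 became 767 with DESeq2, 1310 with no filter, 9 thinned, 137 with another list, 122 with the block and the list without Mmp3 and Plau, and 718 crossed. The difference of Trem2 between organs turned to -0.36 with another list, and DESeq2 put the median of that difference over all genes at 0.38 against 0.03.

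The spot correlation of Mrc1 with the tumor share in the lung of Mouse_628 was 0.090 thinned and 0.12 with another list. That of Retnla with the airway share was 0.30 thinned and 0.24 with another list in Mouse_627, and 0.37 thinned in Mouse_628. Mrc1 was found in 7.27% of lung spots of Mouse_628 at 500 UMIs a spot and 25.2% at 2000. Retnla was found in 23.8% at 500 UMIs and 48.5% at 2000 in Mouse_627, and in 32.8% and 59.0% in Mouse_628. The crossed numbers, the list without Mmp3 and Plau and the settings without airway-rich spots were chosen after seeing the data.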
